A study of Mus musculus with 71 samples.

Results

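Pro-B cells that lacked CRD2 on both Pax5 alleles were compared with wild-type pro-B cells of the same sequencing run, by poly(A) RNA-seq and across all expressed genes. The comparison is of 2 Pax5 ∆CRD2/∆CRD2 samples with the 2 Pax5 +/+ samples that carry replicate numbers 3 and 4. A gene was included if it lay above 1 TPM (a level per length of the mRNA, scaled to the same total in every sample) in at least 1 of these 4 samples, which left 12794 of 25579 genes. The cells were C57BL/6 mouse pro-B cells sorted directly from bone marrow by surface markers, Kit among them, without CD2, IgM and IgD. The ∆CRD2 allele is a germline mutation and no Cre transgene was present in either group. For direct comparisons 2 further genotypes of the same run were used, Pax5 ∆CRD2/− pro-B cells with 1 ∆CRD2 and 1 null allele and Pax5 ∆HD/∆HD pro-B cells that lack the homeodomain sequences of Pax5 on both alleles. Each of them had 2 samples, and the labels give no age for any group. Nothing in the labels says which samples came from separate mice, so p-values measure the spread between these samples, which may in part be technical.

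Pax5 is the transcription factor that commits lymphoid progenitors to the B cell lineage, and it both activates B cell genes and represses genes of other lineages and of earlier progenitors. Its DNA-binding paired domain is followed by an octapeptide that recruits Groucho corepressors, a partial homeodomain and a C-terminal regulatory region with activating and inhibitory sequences. CRD2 is the last segment of this region, encoded by the coding part of exon 10. The homozygous mutant therefore shows what pro-B cells transcribe when all of their Pax5 protein ends before this segment.

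The sequences of the allele are shown because they define what was removed. Exon 10 is the last of 10 exons of Pax5 on chromosome 4 (GRCm38, minus strand), and its coding part covers chr4:44531506-44531582, followed by the untranslated region. In the wild-type window, which lies at chr4:44531558-44531583 and begins with the last base of intron 9, and in the repair template of the study, the bases that differ are in capitals.
Wild-type genome: ggctccccataCTAttacagccctgc
Repair template: ggctccccataGTAAGCTttacagccctgc
sgRNA-5: catactattacagccctgca
Reverse complement with PAM: tgcagggctgtaatagtatgGGG
The template places 7 bases where the genome has 3. In its reading frame 2 codons of exon 10 are kept and are followed by the stop codons TAG and TAA, so that 22 of the 24 amino acid codons of exon 10 are no longer read, out of 391 in the whole protein. It also creates 1 HindIII site, which the wild-type stretch lacks. The guide sgRNA-5, written as listed by the study, lies at chr4:44531557-44531576 and has GCC behind it, while its reverse complement is followed by GGG, in capitals above, which is a PAM of Cas9. All exons are still transcribed from this allele, so the RNA level of Pax5 does not test whether the mutation is present.

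Depth was similar in the 4 samples, with 28928773 to 35553059 recovered reads. The 12 markers of pro-B cells, led by Igll1 and Dntt, added up to 21948 and 20836 TPM in the wild-type and to 24210 and 23396 TPM in the homozygous samples. RNA of other cells differed between replicates more than between genotypes. The 12 granulocyte markers, led by S100a9 and Ngp, summed to 910 and 7193 TPM in wild-type replicates 3 and 4 and to 10386 and 640 TPM in homozygous replicates 1 and 2. Markers of erythroid cells (3867 and 3966 against 8819 and 1686 TPM), of macrophages and monocytes (279 and 587 against 886 and 186 TPM) and of basophils, mast cells and eosinophils (132 and 336 against 781 and 92.9 TPM) were also highest in homozygous replicate 1, as were those of megakaryocytes and platelets (13 and 21.3 against 56.9 and 9.69 TPM). T cell markers (125 to 133 TPM), NK and ILC markers (26.3 to 45.6 TPM), plasma cell markers (225 to 264 TPM), plasmacytoid dendritic cell markers (229 to 284 TPM), and stromal and endothelial markers (124 to 163 TPM) varied by less than the granulocyte and erythroid markers. Among genes with a mean above 5 TPM, 3.59% differed more than 2-fold between the homozygous replicates, against 3.18% between the wild-type replicates. The share was 1.89% in ∆CRD2/− and 1.34% in ∆HD/∆HD cells. Over all genes tested, the SD of the log2 difference between replicates was 1.063 in homozygous and 0.804 in wild-type cells. It was 0.753 in ∆CRD2/− and 0.698 in ∆HD/∆HD cells. The homozygous replicates thus differed most, while the tests used a spread shared by all genotypes modelled. In bulk samples, fewer cells of a type and less RNA per cell cannot be told apart.

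**Figure D1:**
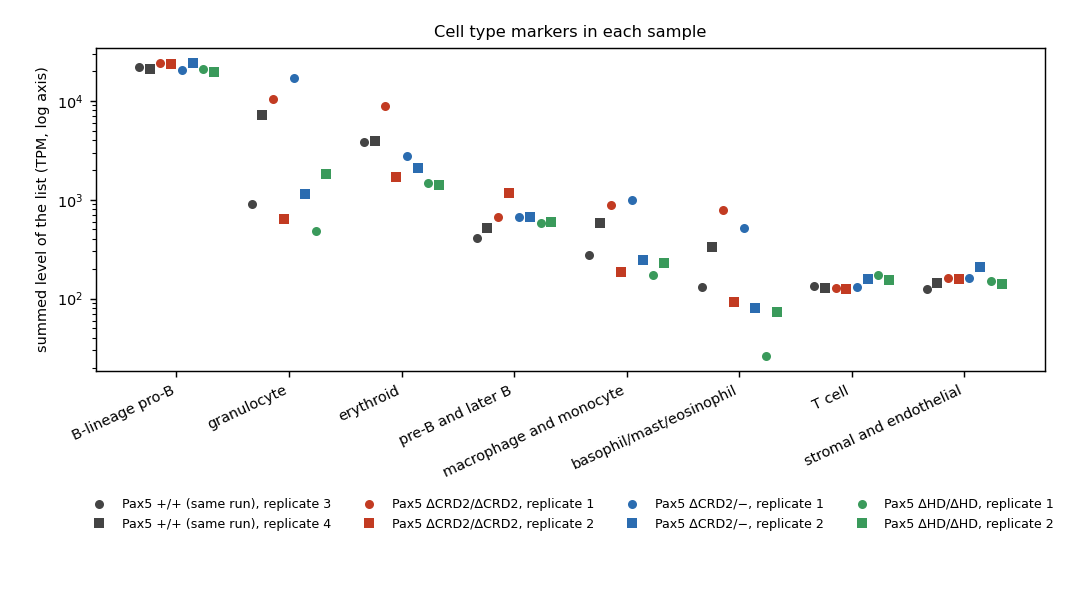
Summed level of 8 lists of cell type markers (TPM, log axis) in each sample of 4 genotypes, with circles and squares for the replicates of a genotype. The pro-B markers lie between 19808 and 24428 TPM in all 8 samples, while the granulocyte markers range from 486 to 16969 TPM and are high in 1 replicate of each CRD2 mutant and in wild-type replicate 4.

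Pax5 itself, the gene that carries the mutation, stood at 342 and 360 TPM in the wild-type samples and at 512 and 464 TPM in the homozygous samples, which did not overlap. With 2 samples against 2, such a lack of overlap is often due to chance, and its share over all genes was not counted. The difference of 0.47 on the log2 scale (SE 0.12, n = 2 and 2) was not past the threshold in limma's test (adjusted p = 0.285). The other 3 Pax5 +/+ samples, of an earlier run sequenced with shorter reads, held 498, 524 and 489 TPM, a range that includes homozygous replicate 1 and lies above replicate 2. In Pax5 ∆CRD2/− cells, where only 1 allele is left, Pax5 mRNA was at 241 and 304 TPM. The direct contrast put the homozygous cells 0.85 above these on the log2 scale (SE 0.12, adjusted p = 0.0187). The call was lost without homozygous replicate 1 (0.78, adjusted p = 0.136) or without hemizygous replicate 1 (0.68, adjusted p = 0.125).

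Few genes were called between homozygous and wild-type cells, and with 2 samples per genotype real changes can be missed. Of the 12794 genes tested, 11 had an adjusted p under 0.05, which is 0.0860% of all, and 9 of them were higher (0.0703%) and 2 lower (0.0156%) than in wild-type cells. With median-of-ratios or TMM scaling the calls were 6 higher and 0 lower. Only Hnrnpll and Eef1akmt1 also changed by more than 3-fold with a mean above 5 TPM, the thresholds used in the study (0.0156% of genes), and both were higher. The median log2 fold change of all genes was 0.03. At an unadjusted p under 0.05, 758 genes were higher (5.92%) and 466 lower (3.64%), in all 9.57%. The count of 11 rests on the spread shared with the other mutants of the run: with only the 4 samples it was 0 (452 genes at an unadjusted p under 0.05), while DESeq2 on the recovered reads called 118 genes. Without wild-type replicate 3 it was 1, without homozygous replicate 2 it was 90 (28 higher, 62 lower), and without both granulocyte-rich samples, wild-type replicate 4 and homozygous replicate 1, it was 35 (28 higher, 7 lower).

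**Figure D2:**
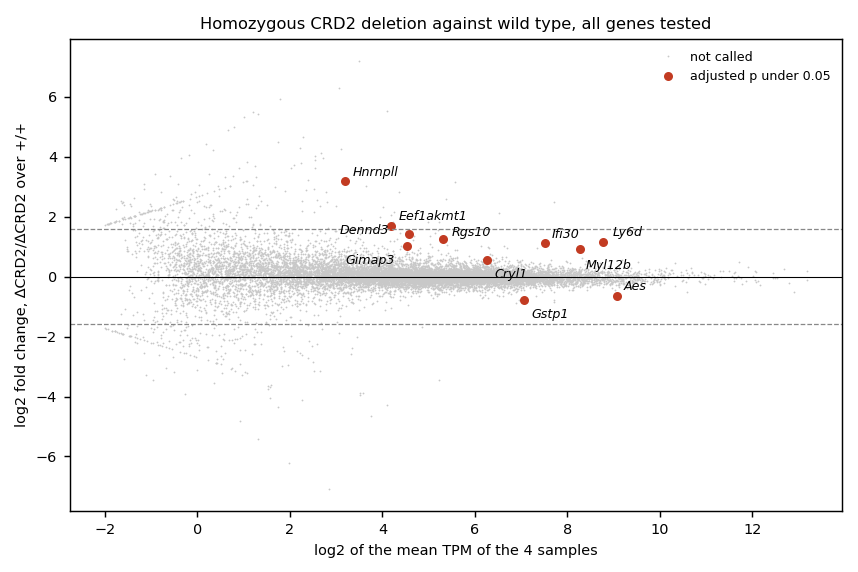
Each point is 1 of the 12794 genes, with log2 of the mean TPM of the 4 samples on the x axis and the log2 fold change of homozygous over wild-type cells on the y axis. The 11 genes with an adjusted p under 0.05 are red and named, the dashed lines mark a 3-fold change, and 9 of the 11 lie above 0.

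The gene with the greatest change among the 11 was Hnrnpll (chr17:80029487-80062268), an RNA-binding protein that controls alternative splicing of CD45. It was nearly silent in wild-type cells, at 1.23 and 2.4 TPM, and reached 14.5 and 18.6 TPM in homozygous cells. That is a 9.06-fold increase (log2 3.18, SE 0.32, adjusted p = 0.00593). Eef1akmt1 (chr14:57549595-57571582), a methyltransferase that acts on a lysine of translation elongation factor 1A, had 7.99 and 8.81 TPM in wild-type and 22.7 and 33.3 TPM in homozygous cells. It rose 3.24-fold (log2 1.70, SE 0.18, adjusted p = 0.00593). In both genes the homozygous replicates lay far above the wild-type replicates, and the earlier wild-type run, with 2.32 to 3.82 TPM for Hnrnpll and 3.21 to 6.33 TPM for Eef1akmt1, was as low.

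Rgs10 and Gimap3 rose by about the same factor. Rgs10, which speeds up the inactivation of heterotrimeric G proteins and so limits chemokine receptor signals, went from 21.5 and 25.4 TPM to 60.4 and 50.7 TPM (log2 1.24, SE 0.15, adjusted p = 0.0108). Gimap3, a GTPase of the immunity-associated family that is known from T cells, went from 13.5 and 17.2 TPM to 28.4 and 33.8 TPM (log2 1.02, SE 0.13, adjusted p = 0.020). Neither gene overlapped between genotypes. Hnrnpll, Eef1akmt1, Rgs10 and Gimap3 are the 4 called genes that belong to the study's list of genes repressed through CRD2 in hemizygous cells.

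The gene with the lowest p was Dennd3 (chr15:73512560-73572242), an exchange factor for the vesicle GTPase Rab12. Its replicates were tight, with 12.7 and 13.1 TPM in wild-type and 33.9 and 35.0 TPM in homozygous cells (2.65-fold, log2 1.41, SE 0.11, adjusted p = 0.000637). Ly6d, a surface protein that marks B-lineage progenitors, was at 298 and 239 TPM in wild-type and at 511 and 701 TPM in homozygous cells (log2 1.16, SE 0.17, adjusted p = 0.0372). Ifi30, the lysosomal thiol reductase that prepares antigens for presentation on MHC class II, was at 116 and 112 against 203 and 299 TPM (log2 1.11, SE 0.17, adjusted p = 0.0480). For Ly6d and Ifi30 the higher homozygous value was replicate 2, but replicate 1 was also above both wild-type samples.

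The remaining 4 called genes changed by less than 2-fold, which the rule for named genes leaves out unless they are list members, so that some were named after their values were seen. Myl12b, a regulatory light chain of non-muscle myosin, rose from 205 and 221 to 441 and 375 TPM (log2 0.93, SE 0.10, adjusted p = 0.00593). Cryl1, a metabolic dehydrogenase, rose from 63.0 and 61.1 to 94.9 and 89.2 TPM (log2 0.57, SE 0.08, adjusted p = 0.0372). Cryl1 lies 151 kb from Eef1akmt1 on chromosome 14. The 2 genes that fell were Aes, which is Tle5 in current nomenclature and encodes a short Groucho family protein without the WD repeats of its relatives, and the glutathione transferase gene Gstp1. Aes had 664 and 639 TPM in wild-type and 411 and 423 TPM in homozygous cells (log2 -0.64, SE 0.09, adjusted p = 0.0353). Gstp1 had 180 and 158 against 90.8 and 105 TPM (log2 -0.78, SE 0.11, adjusted p = 0.0388). Myl12b and Gstp1 have close paralogs, Myl12a and Gstp2, which makes their values uncertain. The file headers call the alignments unique, and no more is given on reads shared by such copies in the sources used here.

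Set against all 5 wild-type samples, 10 of the 11 genes kept both homozygous samples outside the wild-type range, a pattern shown by 9.33% of all genes tested. The calls were made on the same homozygous samples and on wild-type samples within this range, which favours such a count. Only the earlier wild-type samples add to it, and the share over all genes is no background for genes chosen by the call. The exception among the 11 was Gstp1, whose earlier wild-type samples held 98.4, 71.9 and 128 TPM and so enclosed the homozygous values. Aes stood at 703 to 867 TPM in the earlier samples, and Dennd3 at 14.9 to 16.6 TPM, on the wild-type side for both.

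**Figure D3:**
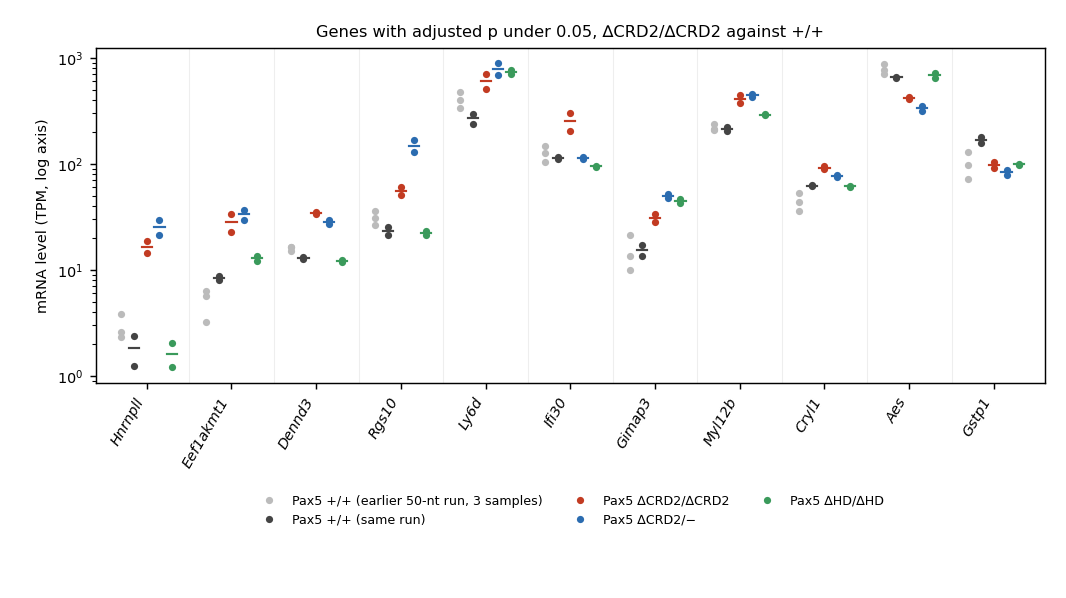
mRNA level (TPM, log axis) of the 11 genes with an adjusted p under 0.05, ordered by log2 fold change, with 1 point per sample and a line at the mean of each genotype of the run. Homozygous samples (red) lie above the wild-type samples of the same run (dark grey) for 9 genes and below them for Aes and Gstp1, and light grey points are the 3 wild-type samples of the earlier run.

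The called genes differed in which other Pax5 mutants shared the level of the homozygous cells. Dennd3 was at 27.0 and 29.5 TPM in ∆CRD2/− cells, at 28.7 to 30.6 TPM in cells without CRD1 (∆CRD1/∆CRD1 and ∆CRD1/−) and at 43.7 and 39.3 TPM in cells without the octapeptide. In the homeodomain mutant it stood at 12.4 and 11.9 TPM, close to the 12.7 and 13.1 TPM of wild-type cells. Hnrnpll was likewise above wild type in each of these but the homeodomain mutant, with 29.7 and 21.1 TPM in ∆CRD2/− cells, 30.5 to 32.8 TPM without CRD1, 19 and 24.2 TPM without the octapeptide and 1.2 and 2.04 TPM without the homeodomain. Rgs10 was unlike both. It was at 129 and 167 TPM in ∆CRD2/− cells and 132 and 126 TPM without the octapeptide, at 39.1 and 43.6 TPM in ∆CRD1/− cells and at 29.7 and 41.2 TPM in ∆CRD1,2/− cells. It was at 20.9 and 20.7 TPM in ∆CRD1/∆CRD1 cells and at 7.38 and 6.48 TPM in cells without CRD1 and CRD2 on both alleles. Aes was at 315 and 352 TPM in ∆CRD2/− cells, 209 and 215 TPM in ∆CRD1/− cells and 714 and 651 TPM in ∆HD/∆HD cells. Levels in these other mutants were set beside the homozygous cells without a test, and those of ∆CRD1/∆CRD1 cells come from the earlier run.

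The supplementary gene lists of the study name genes that require CRD2 in ∆CRD2/− cells. The lists were made with Pax5 +/+ samples that are also the controls here and are therefore not independent evidence of a direction. On the repressed side, 12 of 13 listed genes were tested and 4 were called higher in homozygous cells, beside 0.0703% of all genes, and the median log2 fold change was 1.19 against 0.03 for all genes. Besides the 4 described, Ctla2a (1.39 and 2.97 against 5.47 and 6.06 TPM), Cgas, the sensor of cytosolic DNA (1.85 and 2.77 against 4.39 and 6.40 TPM), the polo-like kinase Plk2 (3.10 and 5.14 against 9.28 and 9.10 TPM), the calcium channel subunit Cacnb2 (2.52 and 2.35 against 4.58 and 5.29 TPM) and 4930486L24Rik (2.05 and 2.20 against 4.71 and 7.65 TPM) were not past the threshold (adjusted p from 0.157 to 0.297). DESeq2 on the recovered reads called 7 genes of this list, Cgas, Plk2 and Cacnb2 in addition. Ell3, an elongation factor of RNA polymerase II, was at 11 and 8.80 against 16.0 and 18.6 TPM (adjusted p = 0.329). Il2ra, the CD25 chain of the IL-2 receptor, was at 1.53 and 3.30 against 4.67 and 3.66 TPM (adjusted p = 0.426), and the sugar transporter Slc5a9 at 1.09 and 1.93 against 1.68 and 2.10 TPM (adjusted p = 0.779). Stum did not reach 1 TPM in any of the 4 samples (0.491, 0.803, 0.753 and 0.582 TPM).

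On the activated side, all 23 listed genes were tested and 0 were called in homozygous cells, while 9 had an unadjusted p under 0.05, all of them lower, beside 3.64% of all genes. On recovered reads edgeR called 0 and DESeq2 called 2, Grb7 and Cep164. The median log2 fold change was -0.54, with 21 of the 23 values below 0. Grb7, an adaptor of receptor tyrosine kinases, stood at 172 and 135 TPM in wild-type and at 86.8 and 78.8 TPM in homozygous cells (log2 -0.88, SE 0.26, adjusted p = 0.337). Cep164, a protein of the centriole, stood at 133 and 105 against 70.5 and 82.1 TPM (adjusted p = 0.225), and the riboflavin transporter Slc52a3 at 16.0 and 14.1 against 4.78 and 9.93 TPM (adjusted p = 0.333). Serpina3n, a serine protease inhibitor, was at 11.7 and 8.35 against 3.27 and 2.55 TPM (adjusted p = 0.381). None of these 4 genes reached the threshold. Phyhip had the largest fall of the list, at 7.65 and 5.31 against 2.42 and 0.978 TPM (log2 -1.97, adjusted p = 0.447). Cldn4 stood at 25 and 24.1 against 11.2 and 12.8 TPM (log2 -1.03, adjusted p = 0.428). Some lay close to wild type: Tmem132e at 102 and 76.4 against 67.0 and 77.1 TPM, Alpl, the tissue-nonspecific alkaline phosphatase, at 147 and 128 against 102 and 135 TPM, and the integrin chain Itgb4 at 5.68 and 4.12 against 3.88 and 4.75 TPM. Scd1, a fatty acid desaturase, was above 0 in its log2 fold change (1.07, SE 0.56, adjusted p = 0.604), as was Rd3l (0.14, SE 0.42, adjusted p = 0.947), whose value turned to -0.48 without homozygous replicate 1.

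**Figure D4:**
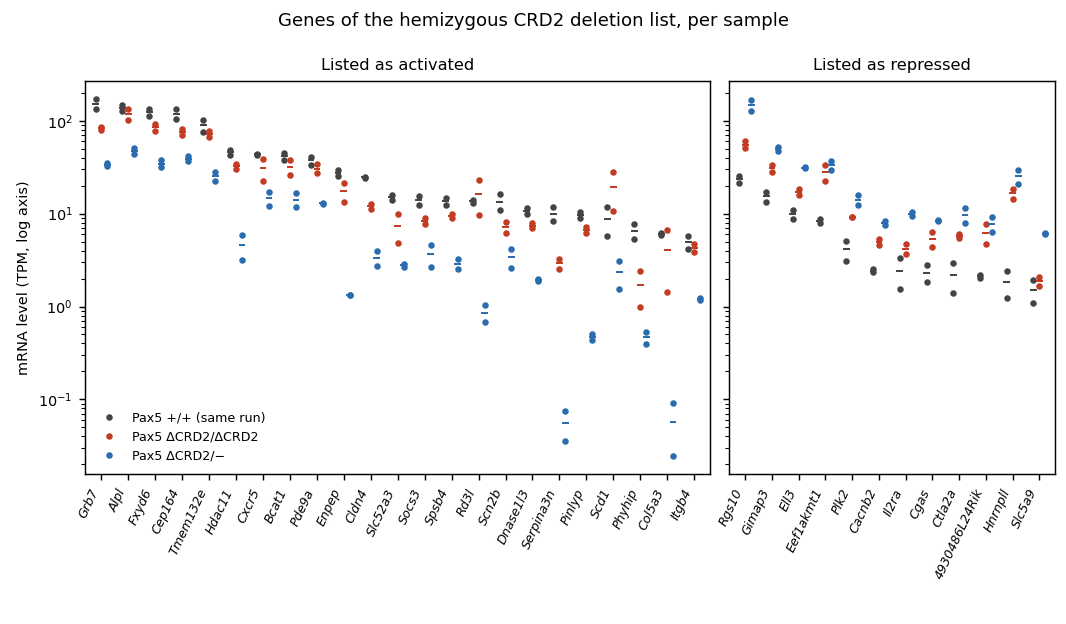
mRNA level (TPM, log axis) of the 23 tested genes listed as activated and the 12 listed as repressed in hemizygous CRD2-deleted cells, with 1 point per sample and a line at each mean. Serpina3n, at 3.27 and 2.55 TPM in homozygous (red) and 0.0758 and 0.0356 TPM in hemizygous cells (blue), and Rgs10, at 60.4 and 50.7 against 129 and 167 TPM, show the separation of the CRD2 mutants on either side.

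Homozygous and hemizygous cells both make only Pax5 protein without CRD2, from 2 alleles or from 1. The direct contrast between them takes its spread from all 14 samples, wild-type ones included, and called 59 genes (0.461% of 12794), 47 higher (0.367%) and 12 lower (0.0938%) in homozygous cells. Without homozygous replicate 1 or 2 it called 23 genes (20 higher, 3 lower) or 144 (62 higher, 82 lower). Without hemizygous replicate 1 or 2 it called 14 (7 higher, 7 lower) or 13 (9 higher, 4 lower). With only the 4 samples limma called 0 genes, with 614 at an unadjusted p under 0.05, while edgeR called 104 and DESeq2 251 in all samples. Of the 23 listed activated genes, 11 were called higher in homozygous cells and 0 lower. All 23 had a log2 difference above 0, with a median of 1.56. Of the 12 repressed genes tested, 1 was called lower, Rgs10, with a log2 difference of -1.41 (SE 0.15, adjusted p = 0.00414). All 12 had a log2 difference below 0, with a median of -0.68. The hemizygous samples were used to choose these lists, which favours a difference in this direction, so the counts are a description.

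Among the activated genes that separated the mutants, Enpep, the aminopeptidase known as BP-1 that appears on the surface of developing B cells, was at 25.4 and 29.7 TPM in wild-type, 13.4 and 21.5 TPM in homozygous and 1.32 and 1.34 TPM in hemizygous cells. Its homozygous minus hemizygous difference was 3.58 on the log2 scale (SE 0.37, adjusted p = 0.00414), that is 12-fold. The histone deacetylase gene Hdac11 had 34.5 and 30.4 against 3.20 and 5.95 TPM (log2 2.86, SE 0.30, adjusted p = 0.00414), and Rd3l had 23.2 and 9.67 against 1.04 and 0.682 TPM (log2 4.00, SE 0.42, adjusted p = 0.00414). Homozygous cells thus held these transcripts at 7.27 to 16.0 times the hemizygous level. Serpina3n (log2 4.28, adjusted p = 0.0102), the collagen gene Col5a3 (4.38, adjusted p = 0.0407), Tmem132e (1.51, adjusted p = 0.00533), Alpl (1.30, adjusted p = 0.00807), Cep164 (0.96, adjusted p = 0.0276), Spsb4 (1.70, adjusted p = 0.0337), the nuclease gene Dnase1l3 (1.88, adjusted p = 0.0383) and Itgb4 (1.75, adjusted p = 0.0386) were also higher. Col5a3 differed between the homozygous replicates, with 1.44 and 6.6 TPM.

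In the whole contrast 10 genes passed the study's thresholds (0.0782% of genes), all higher in homozygous cells, and 5 of them are in the activated list. Without hemizygous replicate 1 this became 3 higher and 4 lower, and without homozygous replicate 2 it became 14 higher and 11 lower. The other 5 were Klhl14, Cd36, Crhbp, 4930426D05Rik and Mir7031. On chromosome 18, 4930426D05Rik (21651565-21656107) lies within the bounds of Klhl14 (21550379-21672929). They are counted as separate genes throughout but may not be independent. Klhl14, an adaptor of ubiquitin ligases that restrains B cell receptor signalling, was at 12.3 and 11.6 TPM in homozygous, 0.905 and 0.683 TPM in hemizygous and 1.1 and 2.34 TPM in wild-type cells (log2 3.77 over hemizygous, SE 0.65, adjusted p = 0.0407). Cd36, a scavenger receptor for fatty acids, was at 30.8 and 21.6 TPM in homozygous, 7.37 and 4.91 TPM in hemizygous and 8.90 and 14.3 TPM in wild-type cells (log2 2.08, SE 0.31, adjusted p = 0.0234). In both genes the homozygous samples exceeded the wild-type samples of both runs and the hemizygous samples, although their difference from wild type was not past the threshold (adjusted p = 0.221 for Klhl14 and 0.296 for Cd36). Both homozygous samples lay outside the range of all 5 wild-type samples, on either side, in 9.33% of all genes tested. Cells without the octapeptide held Klhl14 at 12.3 and 12.1 TPM and Cd36 at 20.4 and 15.1 TPM. Crhbp, which binds corticotropin-releasing hormone, was at 19.5 and 31.1 against 8.70 and 7.10 TPM in hemizygous cells (adjusted p = 0.0407), and the transcript 4930426D05Rik at 5.46 and 10.5 against 0.244 and 0.320 TPM (adjusted p = 0.0109). Mir7031 is a short feature with 3 and 10 recovered reads in homozygous and 0 in hemizygous and wild-type samples, too few for a fold change.

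**Figure D5:**
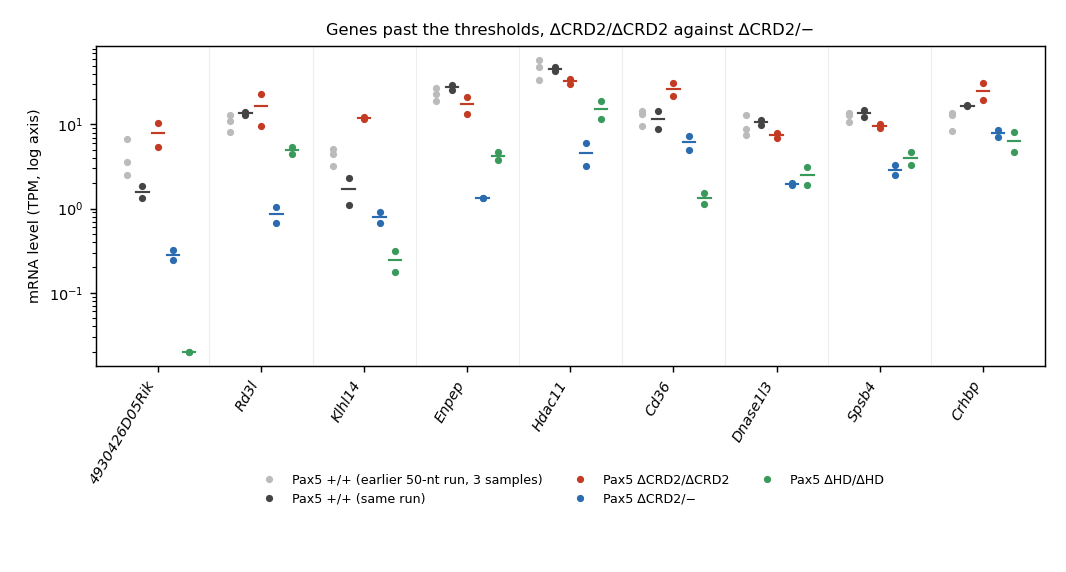
mRNA level (TPM, log axis) of 9 of the 10 genes past the thresholds between homozygous and hemizygous cells, with 1 point per sample and a line at each mean, and values of 0 drawn at the lower edge. Red points (homozygous) are above blue points (hemizygous) for every gene shown. Klhl14, Cd36, Crhbp and 4930426D05Rik are also above the dark grey wild-type samples.

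Ifi30 was called against wild type and against hemizygous cells. The hemizygous samples had 112 and 115 TPM, the level of wild-type cells, and the homozygous cells lay 1.12 above them on the log2 scale (SE 0.17, adjusted p = 0.0244). Gimap3, by contrast, was at 47.3 and 52.0 TPM in hemizygous cells, and its difference from the homozygous cells (log2 -0.68, SE 0.13) had an adjusted p of 0.0584.

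Against ∆HD/∆HD cells, the other homozygous mutant chosen for a direct contrast, 377 genes were called (2.95%), 204 higher (1.59%) and 173 lower (1.35%) in ∆CRD2/∆CRD2 cells, and 47 passed the study's thresholds (0.367%). Without ∆HD/∆HD replicate 1 or 2 the contrast called 45 or 62 genes, and without homozygous CRD2 replicate 1 or 2 it called 86 or 927 (378 higher, 549 lower). Among the called genes of the repressed list, Hnrnpll (log2 3.31, SE 0.32, adjusted p = 0.00117), Rgs10 (1.30, adjusted p = 0.00224) and Eef1akmt1 (1.09, adjusted p = 0.0150) were higher in ∆CRD2/∆CRD2 cells, while Gimap3 had 46.9 and 42.8 TPM in ∆HD/∆HD cells and a difference of -0.53 (adjusted p = 0.0561). Dennd3 was higher by 1.49 (SE 0.11, adjusted p = 0.000260) and Aes lower by -0.71 (SE 0.09, adjusted p = 0.00394). Ly6d stood at 768 and 703 TPM in ∆HD/∆HD cells, and its difference of -0.30 (SE 0.17) had an adjusted p of 0.346. Cd36 (log2 4.20, adjusted p = 0.000260), Klhl14 (5.16, adjusted p = 0.00394), 4930426D05Rik (6.26, adjusted p = 0.000907), Scd1 (3.66, adjusted p = 0.00980) and the MHC class II chaperone gene H2-DMb2 (3.40, adjusted p = 0.0269) were higher in ∆CRD2/∆CRD2 cells, H2-DMb2 mainly through replicate 2 (3.69 and 19.6 TPM against 0.731 and 0.704 TPM). The transcript 4930426D05Rik had 0 reads in both ∆HD/∆HD samples and 122 and 250 reads in the homozygous CRD2 samples. The small RNA features Mir7031, Mir133a-2, Snora28 and Snord2 also passed, on 0 to 59 recovered reads per sample.

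Few genes of the pathway lists passed the test, as was so for all genes, of which 0.0860% were called. At that share, 0 calls in a list of this size says little about its members. Of 24 B-lineage transcription factors tested, 24 genes of pre-BCR and B cell receptor signalling, 13 of V(D)J recombination, 25 of the pro-B to pre-B transition, 18 of IL-7 receptor and STAT5 signalling, 21 subunits of chromatin complexes, 27 cell cycle genes, 20 receptors and adhesion molecules, 14 heat shock and unfolded protein response genes, 17 glycolysis genes, 20 sterol and fatty acid genes, 20 immediate-early genes and 25 interferon-stimulated genes, 0 were called against wild type in limma's test. At an unadjusted p under 0.05 they held between 0 of 21 (chromatin complexes) and 11 of 25 genes (pro-B to pre-B transition, 8 higher and 3 lower), beside 9.57% of all genes. It was 7 of 18 for IL-7 receptor signalling, 6 of 24 for transcription factors, 10 of 25 for interferon, 4 of 20 for immediate-early and 5 of 17 for glycolysis genes, the last all lower. It was 3 of 20 for receptors and adhesion, 2 of 20 for sterol, 2 of 24 for B cell receptor signalling, 1 of 13 for V(D)J recombination, 1 of 14 for heat shock and 1 of 27 for cell cycle genes. edgeR called at most 1 member of any of them, and DESeq2 called at most 4, in the interferon list. The medians of their log2 fold changes lay between -0.11 and 0.17, apart from 0.39 for the immediate-early and 0.51 for the interferon-stimulated genes. The interferon median was 0.25 without wild-type replicate 3, 0.26 without homozygous replicate 1 and 0.82 with all 5 wild-type samples. The exceptions were 2 lists. Of 22 tested progenitor and other-lineage genes repressed by Pax5, Hnrnpll and Gimap3 were called higher, beside 0.0703% of all genes (median 0.18). Both are calls given above and belong to the study's CRD2 list, so they are not separate support. Of 16 tested Groucho corepressors and histone deacetylases, Aes was called lower, beside 0.0156% of all genes (median -0.05). Ebf1 (255 and 333 against 339 and 311 TPM, adjusted p = 0.772) and Rag1 (451 and 495 against 605 and 499 TPM, adjusted p = 0.688) were not past the threshold.

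Among the 25 interferon-stimulated genes, 22 had a log2 fold change above 0 and 10 had an unadjusted p under 0.05, all higher, which is beside 5.92% of all genes in that direction. None passed the adjusted threshold in limma's test or in edgeR, and DESeq2 called 4. The genes with the lowest p in this list, picked after their values were seen, were Irf7, a transcription factor of the interferon response, with 49.7 and 54.7 against 118 and 89.5 TPM (adjusted p = 0.170), Cgas, given above, and the RNA sensor gene Oas2 with 4.09 and 6.22 against 19.3 and 12 TPM (adjusted p = 0.221). The members of the list were not tested as a set.

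The 9 measured markers of pre-B and later B cells summed to 409 and 514 TPM in wild-type and to 676 and 1177 TPM in homozygous samples, with 4 of 9 tested members higher at an unadjusted p under 0.05, beside 5.92% of all genes. In limma's test and in edgeR 0 were called, and DESeq2 called 3. Their median log2 fold change was 1.53, and 0.99 when all 5 wild-type samples were used. Ms4a1, which encodes CD20, was at 2.14 and 6.38 against 11.5 and 62.5 TPM (adjusted p = 0.310), and Cd74, the invariant chain of MHC class II, at 34.3 and 76.3 against 145 and 577 TPM (adjusted p = 0.333). H2-Aa was at 11.7 and 28.1 against 55.0 and 52.2 TPM (adjusted p = 0.436). Replicate 2 of the homozygous cells stood apart in most of these genes. The earlier wild-type samples, at 16.8, 30.5 and 10.4 TPM for Ms4a1 and at 156, 249 and 116 TPM for Cd74, enclosed homozygous replicate 1. The immunoglobulin light chain constant gene Igkc was also highest in replicate 2, with 159 and 559 TPM in wild-type and 489 and 1410 TPM in homozygous samples, against 915, 1171 and 517 TPM in the earlier wild-type samples. Cd2, whose protein was gated out in the sort, was at 2.89 and 7.79 against 2.22 and 16.4 TPM. The part of these later-stage transcripts in the differences of Ly6d, Ifi30 and Cd36 was not tested.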

How the data were processed

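Of sorted mouse pro-B cells and Pax5-deficient progenitors, 25 samples had poly(A) RNA-seq, of which 14 from the pro-B cell sort and the run with reads of 100 nucleotides were modelled. The authors cut reads of both runs to 50 nucleotides, used STAR 2.4.2a for alignment to GRCm38/mm10 and assigned them to RefSeq genes with Rsubread. The values they deposited are TPM, for 25579 genes. The files of Pax5 ∆CRD2/∆CRD2 cells hold no gene names, which were taken by row order. The raw counts that the authors deposited for Pax5 +/+ replicate 3 in the same files were 0 on exactly the rows where its named TPM were 0 (25579 of 25579 rows, against 18547 when shifted by 1). Raw counts divided by TPM imply gene lengths for 16745 genes, and with these 100% of tested values came out as whole reads within 0.01, which gave the depths. Replicates varied by more than counting error, so depth limits only features with few reads.

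Tests used limma 3.58.1 in R 4.3.3 on log2(TPM + 0.1), two-sided, with a trend of the spread on the mean and Benjamini-Hochberg adjustment over 12794 genes, those that exceeded 1 TPM in any of the 4 samples of the main comparison. One mean per genotype was fitted to 14 samples of 7 genotypes, leaving 7 residual degrees of freedom. A gene was called at an adjusted p under 0.05. The study's thresholds also ask for more than a 3-fold change and, in 1 genotype, a mean of over 5 TPM, with immunoglobulin and histone genes left out. Fold changes are on the log2(TPM + 0.1) scale, which understates changes of low genes. edgeR 4.0.16 and DESeq2 1.42.0 were run on recovered reads as alternatives. Scripts were tested on simulated data. Named genes were Pax5, called genes with a fold change above 2, members of the study's CRD2 list, called list members, and up to 10 genes per direct contrast past the study's thresholds. The members and lists were chosen with earlier results of these data known. Coordinates are those of GRCm38.p6 (RefSeq), and 2 list symbols were matched by synonym. ATAC-seq and ChIP-seq data were not used here, and 1 item is not reported here.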

Additional observations from a re-analysis of the deposited data

Results flagged for a closer look

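The change that loss of CRD2 brings relative to wild type can be asked for cells with 2 mutant alleles and for cells with 1, and the direct contrast of the mutants tests the difference. It was past the threshold (limma, adjusted p under 0.05) for 14 of the genes named in the comparison with wild type, its CRD2 lists included. The 5 further genes past the study's thresholds in the direct contrast are given above. Homozygous minus hemizygous, the log2 differences were 0.85 for Pax5, -1.41 for Rgs10 and 1.12 for Ifi30. On the activated side of the CRD2 list they were 4.28 for Serpina3n, 4.38 for Col5a3, 3.58 for Enpep, 4.00 for Rd3l, 2.86 for Hdac11, 1.88 for Dnase1l3, 1.70 for Spsb4, 1.75 for Itgb4, 1.51 for Tmem132e, 0.96 for Cep164 and 1.30 for Alpl. Rgs10 was the only one of these that was called higher than wild type and lower than in hemizygous cells. Pax5 mRNA differed with the number of alleles, and its part in the other differences cannot be told apart from that of the allele number.

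Each group compared held 2 samples, so no sample was tested as standing apart from its group.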

How the results depend on the processing

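Homozygous against wild type, the count of 11 called genes became 17 with a pseudocount of 1, 6 with median-of-ratios scaling and 6 with TMM scaling, 0 with only the 4 samples (452 at an unadjusted p under 0.05), 4 with 17 samples and a read-length term, and 118 with DESeq2. It ranged from 1 to 90 when 1 sample was left out. The 2 genes past the study's thresholds became 4, 0, 1 and 10 with the pseudocount of 1, the 4 samples, the 17 samples and DESeq2, 5 with all 5 wild-type samples and no read-length term, and 0 to 15 with 1 sample left out. Added after seeing the data, the fit without both granulocyte-rich samples called 35 and 7, and that with the granulocyte marker level as a term 9 and 2. Within the 11 genes no alternative turned a direction. Dennd3 was called in 18 of 19 alternatives, Hnrnpll and Myl12b in 17, Eef1akmt1 in 16, Rgs10 and Gimap3 in 15, Aes in 10, Ifi30 in 9, Cryl1 and Ly6d in 8 and Gstp1 in 7. The causes were not tested. Against hemizygous cells, 59 calls became 30 without a filter, 33 without a trend, 0 with only the 4 samples (614 at an unadjusted p under 0.05), 104 with edgeR and 251 with DESeq2, and 13 to 144 with 1 sample left out. The 10 genes past the thresholds became 6 with a pseudocount of 0.01, 6 without a filter, 0 with 4 samples, 22 with DESeq2, and 4 to 25. Against ∆HD/∆HD cells, 377 calls became 251 without a filter, 227 without a trend, 0 with 4 samples (1829 at an unadjusted p under 0.05), 206 with 17 samples, 568 with edgeR and 1174 with DESeq2, and 45 to 927 with 1 sample left out. The 47 genes became 29 without a trend, 0 with 4 samples, 92 with DESeq2, and 18 to 129. For Pax5 mRNA the log2 change over wild type passed with DESeq2 (0.45, adjusted p = 0.0336). That over hemizygous cells (0.85) missed the threshold without a trend (0.85) and with 4 samples (0.85), and ranged from 0.68 to 1.01 with 1 sample left out. That over ∆HD/∆HD cells ranged from -0.00 (without homozygous replicate 1) to 0.14. Directions against wild type turned for Col5a3 (-2.01 to 0.11 with 1 sample left out, 0.11 without homozygous replicate 1, and 0.15 without both granulocyte-rich samples), Rd3l (-0.48 without homozygous replicate 1 to 0.77, and -0.44 without both), Itgb4 (-0.39 to 0.06, the latter without wild-type replicate 3), Slc5a9 (-0.04 without wild-type replicate 3 to 0.73, and -0.04 with 5 wild-type samples), Pde9a (0.00 without both granulocyte-rich samples) and Il2ra (-0.23 with 5 wild-type samples), none of them called. Of 1154 values of named genes, 964 kept direction and side of the threshold, 173 lost the call and 8 gained it. Depth limits the short features named, with 0 to 59 reads per sample.

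No paired analysis was possible because the homozygous samples (replicates 1 and 2) and the wild-type samples (3 and 4) share no replicate number. Between the mutants, equal numbers mark no stated batch. The deviations of the homozygous samples correlated with those of same-numbered samples by -0.24 to 0.18 over the 5 other genotypes, with 0.18 for ∆CRD2/− cells. These values show no pairing by number, but whether same-numbered samples shared a batch was not tested. With the replicate number as a block, calls against hemizygous cells were 24, with 6 past the thresholds, calls against ∆HD/∆HD cells 234, with 31, and Pax5 over hemizygous cells was 0.85 (adjusted p = 0.0662).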

Other observations

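The other gene lists of the study hold genes that depend on other parts of Pax5, and each was counted in the homozygous CRD2 mutant. These lists share wild-type samples with the comparison and overlap each other, so the counts are descriptions. Of 109 tested genes repressed through CRD1 in hemizygous cells, 4 were called higher and 0 lower, beside 0.0703% and 0.0156% of all genes, with a median log2 fold change of 0.58, and 55 had an unadjusted p under 0.05 and were higher, beside 5.92% of all genes. Of 214 genes activated through CRD1, 0 were called higher and 1 lower, with a median of -0.06. At an unadjusted p under 0.05, 31 of them were lower and 11 higher, beside 3.64% and 5.92% of all genes. On recovered reads edgeR called 1 of these genes and DESeq2 13. Among 26 tested genes repressed through the octapeptide 4 were called higher, beside 0.0703% of all genes (median 0.91), and among the 6 activated ones 0 were called by limma, edgeR or DESeq2, while 5 were lower at an unadjusted p under 0.05, beside 3.64% of all genes (median -1.02). Of the genes that depend on the homeodomain, 0 of 32 activated genes were called by limma (4 at an unadjusted p under 0.05, 2 called by DESeq2, median -0.13) and 0 of 7 repressed genes (3 at an unadjusted p under 0.05, 0 called by edgeR or DESeq2, median 0.53).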
